A study of Mus musculus with 69 samples.

Results

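The transcriptional response of vascular smooth muscle cells (VSMC) to 2 stress hormones was compared between cells with and without the epidermal growth factor receptor (EGFR). The comparison used 16 of the 69 RNA-Seq libraries of the series, namely the Control and the AII + NA library of sets 1 to 4 (WT VSMC) and of sets 5 to 8 (KO VSMC). Libraries of a set came from 1 animal and passage and were treated at the same time, so the hormone effect was taken within each set, and the genotype dependence described here is the WT effect less the KO effect (WT minus KO). All 8 animals were male C57BL/6 mice with a different animal number for each set, and all libraries carried the same batch label. Their age was not given in the sources used here. KO VSMC came from mice in which Cre under the SM22 promoter, active in smooth muscle, removes a floxed Egfr gene, and WT VSMC came from mice labelled wild-type, for which the sources used here do not say whether they carried the floxed gene or Cre. Primary cells were grown from the thoracic and abdominal aorta for up to 7 passages, were kept without serum and supplements for 24 h and were then left untreated (Control) or exposed for 24 h to 30 nM angiotensin II and 300 nM of a catecholamine (AII + NA), which the labels call epinephrine and the paper norepinephrine. The remaining 15 VSMC libraries were treated with 20 mM glucose and free fatty acids (HG + FFA) or with those and both hormones (ALL).

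Angiotensin II acts on VSMC mainly through the type 1 angiotensin receptor, and catecholamines act through α- and β-adrenergic receptors. All of these receptors couple to heterotrimeric G proteins. Both hormone systems can also activate EGFR without an added EGFR ligand, a process called transactivation, in which a surface metalloprotease frees a membrane-bound ligand such as heparin-binding EGF-like growth factor and the receptor then signals to extracellular signal-regulated kinase (ERK). Smooth muscle genes of the contractile apparatus are known targets of serum response factor, which binds the CArG box.

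Egfr reads gave a check of the genotype labels. Egfr stood at 247 to 415 FPM (reads assigned to the gene per 1000000 reads of the normalized library) in the 4 WT sets, averaged over Control and AII + NA, and at 0.875 to 1.80 FPM in KO sets 6 to 8. KO set 5 kept 36.5 FPM, which is 10.6% of the WT mean. The groups did not overlap (exact two-sided permutation test over sets, p = 0.0286, the smallest p that 4 against 4 sets allow). The markers of the labelled cell type were present, with all 8 smooth muscle markers at a median of 1 FPM or more over the 16 libraries. All 8 fibroblast markers reached that median too. The summed smooth muscle markers had a median of 704 FPM in WT Control, 1550 FPM in WT AII + NA, 1501 FPM in KO Control and 1741 FPM in KO AII + NA. The summed fibroblast markers stood at a median of 3517 FPM in WT Control and 1033 FPM in KO Control. In bulk RNA, fewer cells of a type and less RNA per cell cannot be told apart. Libraries held 23238979 to 37801299 counts. Effects of KO sets 7 and 8 followed transcript length and set 5 kept Egfr RNA, so for the genes and lists followed under these settings, the value without sets 7 and 8, or without set 5, is given where leaving them out ended a call.

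No single gene passed the false discovery rate (FDR) limit of 0.05 for a different hormone effect in WT and KO VSMC. The joint edgeR model tested 18339 genes, 0 of them passed, and the smallest FDR was 0.395. At an unadjusted p under 0.05, 1270 genes (6.93%) had a higher effect in WT VSMC and 912 (4.97%) a lower one, together 2182 (11.9%). DESeq2 gave 0 calls, with a smallest FDR of 0.0822. Without the filter on low counts, edgeR shrank the spread of 35709 genes to a common trend and 350 genes passed, 249 of them higher and 101 lower in WT VSMC. The statements on single genes below therefore rest on unadjusted p-values unless an FDR is given. In WT VSMC alone the hormones changed 71 genes (0.387%) at an FDR under 0.05 in edgeR. In KO VSMC 0 genes (0%) passed, with a smallest FDR of 0.144, although 6.07% of the genes were higher and 8.37% lower at an unadjusted p under 0.05. The corresponding shares in WT VSMC were 4.48% and 2.75%.

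Differentially expressed genes (DEG) had an FDR under 0.05 in edgeR and DESeq2, an absolute log2FC of at least 0.64 and a mean of at least 3 FPM in a group. Under AII + NA there were 51 DEG in WT VSMC, of which 50 rose, and Fmo4, a flavin-containing monooxygenase, fell. There were 0 DEG in KO VSMC (1 by DESeq2 alone, and 92 without set 5). The WT count was 8 with WT VSMC fitted alone, all 8 among the 51, and 0 without set 2, 10 without set 4, 24 without set 6 and 30 without set 7. These counts alone do not show a difference between genotypes, and the 51 genes were chosen by their values in WT VSMC, so their lower effects in KO VSMC in the same contrast are a description. The median log2FC of the 50 genes was 0.996 in WT and 0.369 in KO VSMC. The KO effect pointed the same way as the WT effect in 47 of the 51 genes and had an unadjusted p under 0.05 in 21.

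The hormone effect was measured a second time in 14 other libraries, of sets 1 to 4 and 6 to 8, in which the hormones were added on top of HG + FFA, so that the effect was ALL minus HG + FFA. These libraries were not part of the contrast that chose the DEG, but they were part of the joint model and entered its estimate of the spread. The cells came from the same animals, and set 5 had no ALL library. All 51 DEG moved in the same direction in WT VSMC there, 50 of them at an unadjusted p under 0.05, against 5.04% of all genes tested that were higher and 4.67% that were lower. In KO VSMC, 1 of the 51 genes (Ramp1) had an unadjusted p under 0.05 in that direction, against 2.22% of all genes higher and 4.04% lower. The direct test of WT minus KO had the same sign in all 51 genes and an unadjusted p under 0.05 in 41 of them (80.4%), against 3.64% of all genes that were higher and 2.24% that were lower in WT VSMC. None of the 51 genes differed the other way at that level. Taken in the direction of the call, the median effect was 0.873 in WT VSMC, 0.119 in KO VSMC and 0.820 for the difference. For no gene did this test reach an FDR under 0.05, and the smallest FDR among the 51 genes was 0.185. When DEG were called from the 16 Control and AII + NA libraries alone, without use of the 14, 18 of 23 (78.3%) differed in the second measurement at an unadjusted p under 0.05 and in the same direction. Without set 7 the count was 28 of the 51 genes, against 2.12% of all genes higher in WT VSMC. Without set 1 it was 45, against 4.14%.

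**Figure D1:**
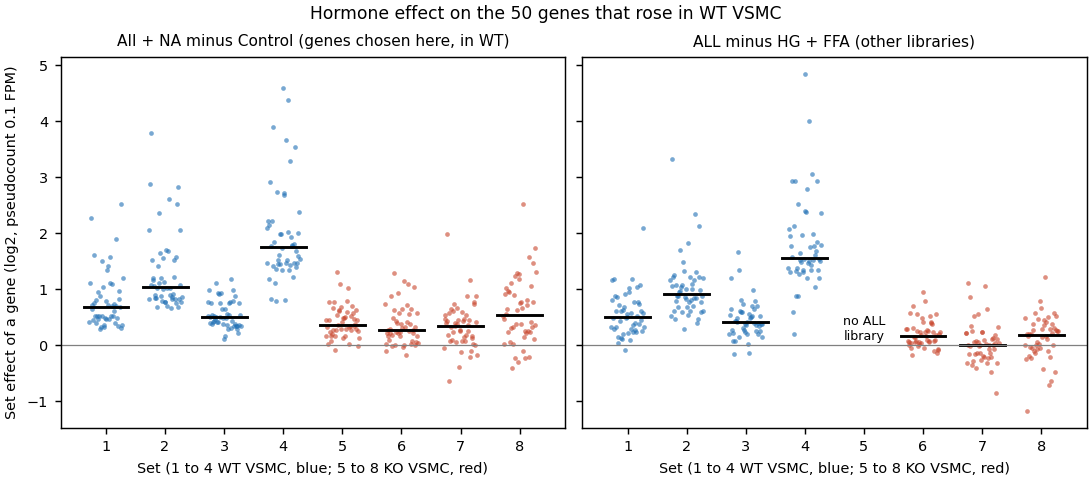
Hormone effect (log2 ratio of FPM with a pseudocount of 0.1 FPM, vertical axis) of the 50 genes that rose in WT VSMC, by set (horizontal axis), as AII + NA minus Control on the left, where the genes were chosen in WT VSMC, and as ALL minus HG + FFA on the right. Each point is a gene and each bar the median of a set, which on the right lies between 0.410 and 1.57 in the WT sets and between 0.00916 and 0.182 in the KO sets.

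Within WT VSMC the size of this response varied between sets. The median effect of the 50 genes was 0.692 in set 1, 1.05 in set 2, 0.502 in set 3 and 1.75 in set 4, and the corresponding medians of the second measurement were 0.512, 0.918, 0.410 and 1.57. Set 4 thus had the highest and set 3 the lowest median in both. In KO VSMC the medians for AII + NA were 0.366 in set 5, 0.270 in set 6, 0.353 in set 7 and 0.545 in set 8, all of them positive, and set 8 lay above WT set 3. Added to HG + FFA, the hormones gave medians of 0.173 in set 6, 0.00916 in set 7 and 0.182 in set 8, and all 3 lay below the 4 WT sets. Of the 50 genes, 48 to 50 were positive in each WT set of the second measurement, and 42, 27 and 34 in KO sets 6, 7 and 8. KO set 5, which kept Egfr RNA, lay within the range of the other KO sets in the first measurement.

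Among the receptors of vasoactive hormones, Ramp1, which forms the calcitonin gene-related peptide receptor with its partner receptor, had the highest log2FC of the 51 DEG in WT VSMC. Ramp1 (chromosome 1, 91107540 to 91152918 of GRCm39) read 1.03, 0.526, 0.549 and 0.382 FPM in WT Control and 5.37, 4.52, 1.31 and 10.0 FPM in WT AII + NA. In KO VSMC it read 0.468, 0.882, 1.25 and 0.228 FPM under Control and 0.868, 2.07, 0.767 and 1.79 FPM with hormones. All WT sets rose and KO set 7 fell, and the KO set 8 effect lay within the WT range. The log2FC was 2.83 ± 0.454 (SE) in WT and 0.872 ± 0.478 in KO VSMC, a difference of 1.96 ± 0.662 (edgeR, unadjusted p = 0.00673). The second measurement gave a difference of 1.66 (unadjusted p = 0.0191). Without set 7 the p of the first was 0.0706. Ramp1 was under 3 FPM in every WT Control library, so its fold rests on few reads.

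Agtr1b, a mouse type 1 angiotensin receptor gene, read 2.05, 3.49, 2.25 and 3.78 FPM in WT Control and 5.34, 10.4, 4.34 and 13.2 FPM in WT AII + NA. KO VSMC had 1.20, 1.13, 2.09 and 4.65 FPM under Control and 2.54, 1.54, 3.37 and 5.46 FPM with the hormones, so the gene was higher with hormones in all 8 sets. Its log2FC was 1.44 ± 0.209 (edgeR FDR = 0.00213) in WT and 0.596 ± 0.226 in KO VSMC (unadjusted p = 0.0142), and the difference of 0.843 ± 0.307 had an unadjusted p of 0.0112. The difference was 0.879 (unadjusted p = 0.0108) in the second measurement. The first difference of Agtr1b fell to 0.707 (unadjusted p = 0.0549) without set 8 and to 0.658 (unadjusted p = 0.114) without sets 7 and 8. Its paralogue Agtr1a had a log2FC of 0.911 in WT and 1.25 in KO VSMC, with a difference of -0.335 ± 0.377 (unadjusted p = 0.384). Agtr1a differed in level, with 4.65 to 17.1 FPM in WT Control and 0.0963 to 1.67 FPM in KO Control. The authors counted reads with several alignments, so the split of reads between these paralogues is uncertain. Agtr2, the type 2 angiotensin receptor gene, had a log2FC of -1.06 in WT (edgeR FDR = 0.0619) and -0.815 in KO VSMC, and the genotypes did not differ at an unadjusted p under 0.05 (p = 0.557). Over the 12 genes of the angiotensin list, 1 (Agtr1b) was higher in WT minus KO at an unadjusted p under 0.05, against 6.93% of all genes. Lower was 1 gene, Lnpep, the insulin-regulated aminopeptidase that binds angiotensin IV, against 4.97% of all genes. Both counts are near what these shares give for 12 genes.

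Itga8, the integrin α8 chain of smooth muscle, read 15.7, 21.0, 18.6 and 30.0 FPM in WT Control and 47.1, 67.6, 31.5 and 156 FPM in WT AII + NA. KO VSMC had 53.7, 18.4, 24.3 and 28.6 FPM under Control and 58.7, 37.9, 44.8 and 70.7 FPM with hormones. All sets were higher with hormones, and KO set 5 changed least. The log2FC was 1.62 ± 0.236 in WT (edgeR FDR = 0.00213) and 0.828 ± 0.231 in KO VSMC, the difference 0.794 ± 0.327 (unadjusted p = 0.0227) and the second difference 0.985 (unadjusted p = 0.00491). Without KO set 5 the first difference had an unadjusted p of 0.109, and without WT set 4 one of 0.0678.

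Fscn1, which bundles actin filaments, rose in every WT set (chromosome 5, 142946098 to 142958953 of GRCm39). It read 366, 312, 637 and 201 FPM in WT Control and 463, 688, 939 and 811 FPM in WT AII + NA, against 270, 78.7, 335 and 430 FPM in KO Control and 343, 79.1, 257 and 372 FPM in KO AII + NA. KO sets 7 and 8 were lower with hormones, and KO set 5 was higher by as much as WT set 1. The difference of log2FC was 1.06 ± 0.257 (unadjusted p = 0.000387) and was 0.937 (unadjusted p = 0.000794) in the second measurement, and its p stayed at or under 0.00317 when any set was left out. For Lama5, the laminin α5 chain of basement membranes, the differences were 0.566 ± 0.249 (unadjusted p = 0.0318) and 1.28 (unadjusted p = 9.49e-05). Lama5 had a log2FC of 1.0 in WT and 0.435 in KO VSMC, and added to HG + FFA the KO effect was -0.281. The first difference of Lama5 had an unadjusted p of 0.0553 to 0.150 without set 2, 4, 5 or 7, and was 0.530 (unadjusted p = 0.0892) without sets 7 and 8.

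Edn1, which encodes the vasoconstrictor endothelin-1 (chromosome 13, 42446301 to 42461466), read 6.24, 19.3, 11.4 and 8.43 FPM in WT Control and 14.5, 44.5, 22.0 and 55.8 FPM in WT AII + NA. KO VSMC had 14.3, 19.5, 17.5 and 24.5 FPM under Control and 18.6, 20.7, 26.3 and 35.3 FPM with hormones. The 4 WT set effects, from 0.943 to 2.71, all lay above the 4 KO set effects, from 0.0846 to 0.585. The log2FC was 1.5 ± 0.288 in WT (edgeR FDR = 0.0164) and 0.384 ± 0.276 in KO VSMC, with a difference of 1.12 ± 0.396 (unadjusted p = 0.00935) and of 0.877 (unadjusted p = 0.017) in the second measurement. Npas4, an activity-dependent transcription factor gene of low level here (0.174 to 2.54 FPM in WT Control), had differences of 1.74 ± 0.735 (unadjusted p = 0.0263) and 3.14 (unadjusted p = 0.000658). The first of these had an unadjusted p of 0.0532 to 0.0776 without set 1, 4, 7 or 8, and was 1.32 (unadjusted p = 0.166) without sets 7 and 8.

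The DEG included genes of the cytoskeleton. Actb (β-actin, with many near-identical copies in the genome), Tpm4 (a tropomyosin), Myh10 (a non-muscle myosin heavy chain), Mylk (myosin light chain kinase) and Tubb3 (a β-tubulin) rose in WT VSMC by a log2FC of 0.737, 0.682, 0.84, 1.10 and 0.75. Their log2FC in KO VSMC in the same contrast was 0.141, 0.123, 0.627, 0.589 and 0.162, with an unadjusted p of 0.00107 for Myh10. Mylk had a first difference of 0.506 (edgeR, unadjusted p = 0.0719). The WT minus KO values in the second measurement were 0.535, 0.572, 0.988, 1.45 and 0.434. Each had an unadjusted p under 0.05, from 1.01e-05 for Mylk to 0.0495 for Tubb3. Mylk differed in its KO effect between the measurements, with 0.589 (unadjusted p = 0.00566) for AII + NA and -0.547 (unadjusted p = 0.0068) for ALL minus HG + FFA. Ccn2 (connective tissue growth factor) and Ankrd1, known targets of the coactivator YAP, had second differences of 0.695 (unadjusted p = 0.033) and 1.01 (unadjusted p = 0.0421). Of 22 YAP pathway genes, 2 (Ccn2 and Ankrd1) were higher and 2 (Wwtr1 and F3) lower in the first measurement at an unadjusted p under 0.05. The shares of all genes were 6.93% and 4.97%, and the list median was 0.0232. In the second measurement 9 were higher and 2 lower, against 3.64% and 2.24% of all genes. F3 was lower in both.

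The 10 DEG that did not reach an unadjusted p under 0.05 for WT minus KO in the second measurement included Agtr1a, Rgs3, Gnai1 and Fabp4. Bmp3, a member of the bone morphogenetic protein family, was an example of like effects in the first measurement. Its log2FC was 0.673 ± 0.113 in WT and 0.694 ± 0.124 in KO VSMC, with a difference of -0.0213 ± 0.166. Added to HG + FFA the difference was 0.548 (unadjusted p = 0.0108).

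**Figure D2:**
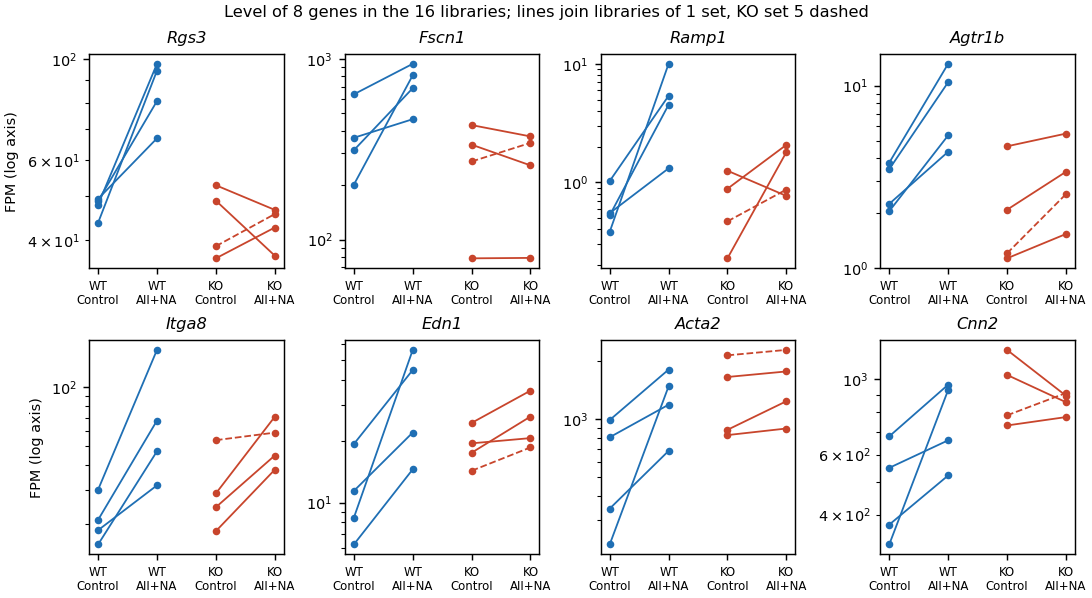
Level in FPM (vertical axes, logarithmic, a scale for each gene) of 8 genes in the 16 libraries, by group (horizontal axes); each line joins the Control and AII + NA library of a set, WT VSMC in blue and KO VSMC in red with set 5 dashed. The line of every WT set rises for each of the genes, whereas for Rgs3, Fscn1 and Cnn2 the lines of KO sets 7 and 8 fall.

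The contractile genes had a higher hormone effect in WT than in KO VSMC as a group. Of 21 tested genes of a list of 22, 11 had a higher effect in WT VSMC at an unadjusted p under 0.05, against 6.93% of all genes, and 0 had a lower one, against 4.97%. They were Acta2, Cnn1, Myl9, Des, Tpm1, Tpm2, Itga8, Mustn1, Csrp1, Pdlim7 and Cnn2. The median log2FC of the list was 0.576 in WT, 0.135 in KO VSMC and 0.531 for the difference, against -0.00618 for the difference over all genes. In the second measurement 9 of 21 were higher in WT and 0 lower, against 3.64% and 2.24% of all genes, 20 of 21 were positive and the median difference was 0.529. Acta2, Itga8, Csrp1 and Cnn2 passed in both. The count of 11 fell to 4 without WT set 4, where 639 of all 18339 genes were higher. It fell to 3 without KO sets 7 and 8, where 231 of all genes were higher. The second count of 9 fell to 4 without set 7, against 2.12% of all genes. The markers that name the cell type belong to this group, so the summed smooth muscle markers moved with it (the medians are given above), and the KO Control level of these markers was higher than that of WT Control. The fibroblast markers moved the other way in the second measurement, where 3 of 8 were lower in WT minus KO, against 2.24% of all genes. There 0 of the 8 were positive and the median difference was -0.293. In the first measurement 0 of the 8 passed in either direction and the median was -0.0388. The part of these markers in the result was not tested. Without sets 7 and 8 the first differences of Tpm1, Tpm2 and Csrp1 were 0.388, 0.493 and 0.391, with unadjusted p-values of 0.123, 0.128 and 0.166. With single sets left out, Tpm1 had an unadjusted p of 0.0506 to 0.119 without set 4, 5, 7 or 8, and Csrp1 one of 0.0932 without set 4 and 0.061 without set 8.

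Acta2, smooth muscle α-actin (chromosome 19, 34217737 to 34232990), read 805, 344, 988 and 225 FPM in WT Control and 1186, 684, 1802 and 1475 FPM in WT AII + NA. KO VSMC had 2135, 879, 1649 and 826 FPM under Control and 2277, 1236, 1762 and 893 FPM with hormones. The set effects of WT VSMC, 0.559 to 2.71, lay above those of KO VSMC, 0.0933 to 0.491, and the KO Control levels overlapped those of WT AII + NA. The difference was 1.05 ± 0.411 (unadjusted p = 0.0177) and was 1.01 (unadjusted p = 0.0191) in the second measurement. The first difference of Acta2 had an unadjusted p of 0.0562 without WT set 4, and was 0.941 (unadjusted p = 0.114) without sets 7 and 8.

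An exact CArG box, CC and GG with only A or T between them as in the capitals below, was searched within 250 bases before the start. Cnn2 (calponin 2) and Myl9 (the regulatory light chain of smooth muscle myosin) are the genes of this group that differed between genotypes and hold such an exact box there. They are shown in lower case with the CArG box in capitals, from RefSeq promoters of GRCm38.p6, on the plus strand at chr10:79988350-79988599 and chr2:156775214-156775463, and end at the base before the start of the transcript.
Cnn2: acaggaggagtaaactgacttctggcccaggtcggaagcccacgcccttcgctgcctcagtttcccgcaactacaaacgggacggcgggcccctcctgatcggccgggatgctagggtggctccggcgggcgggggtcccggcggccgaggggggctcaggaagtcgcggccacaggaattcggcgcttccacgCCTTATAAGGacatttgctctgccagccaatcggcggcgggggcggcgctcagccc
Myl9: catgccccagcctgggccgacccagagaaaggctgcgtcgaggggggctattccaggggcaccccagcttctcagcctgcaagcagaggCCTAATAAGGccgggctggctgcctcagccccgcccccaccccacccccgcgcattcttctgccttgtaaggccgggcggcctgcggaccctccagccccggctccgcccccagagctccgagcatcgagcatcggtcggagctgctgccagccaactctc
The box lies 56 to 47 bases before the start in Cnn2 and 161 to 152 bases before it in Myl9. Searched on both strands, it was held by 3 of 21 promoters (14.3%) of 19 contractile genes, those of Cnn2, Myl9 and Vcl, by 1 of 47 promoters (2.13%) of the WT DEG, that of Myom1, and by 482 of all 32851 promoters (1.47%). A match is a description of the letters in this window. Boxes with a mismatch or farther from the start were not searched, so a gene without a match here may still hold a CArG box.

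Cnn2 read 549, 374, 679 and 327 FPM in WT Control and 661, 521, 962 and 928 FPM in WT AII + NA, against 782, 730, 1027 and 1216 FPM in KO Control and 909, 773, 855 and 893 FPM in KO AII + NA. Every WT set was higher with hormones, by more than any KO set. The difference was 0.789 ± 0.248 (unadjusted p = 0.00393) and 0.602 (unadjusted p = 0.0211) in the second measurement, and the first fell to 0.532 (unadjusted p = 0.118) without sets 7 and 8. Myl9 had WT set effects of 0.540 to 1.93 and KO set effects of -0.0927 to 0.538, a difference of 0.815 ± 0.321 (unadjusted p = 0.0177) and a second difference of 0.549 (unadjusted p = 0.0748). The first difference of Myl9 had an unadjusted p of 0.0649 without set 4 and 0.0532 without set 7, and was 0.592 (unadjusted p = 0.180) without sets 7 and 8. Vcl, the vinculin gene, had a log2FC of 0.528 ± 0.253 in WT and 0.574 ± 0.255 in KO VSMC under AII + NA, and a second difference of 0.569 (unadjusted p = 0.013). Cnn1, the calponin of differentiated smooth muscle, had a log2FC of 1.04 ± 0.251 in WT and -0.0127 ± 0.246 in KO VSMC (difference 1.05, unadjusted p = 0.00599). The difference of Cnn1 was 0.848 (unadjusted p = 0.0531) when sets 7 and 8 were left out.

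Not every member moved this way. Myh11, the smooth muscle myosin heavy chain, had a difference of -0.0552 ± 0.315 (unadjusted p = 0.862), and KO set 5 held 234 FPM of it in Control where the other 7 sets had 2.88 to 9.72 FPM. Des, the desmin gene, reversed between measurements. Its WT minus KO value was 1.16 ± 0.346 (unadjusted p = 0.0025) for AII + NA and -0.782 (unadjusted p = 0.0737) for ALL minus HG + FFA, at levels of 0.526 to 2.14 FPM in WT Control.

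**Figure D3:**
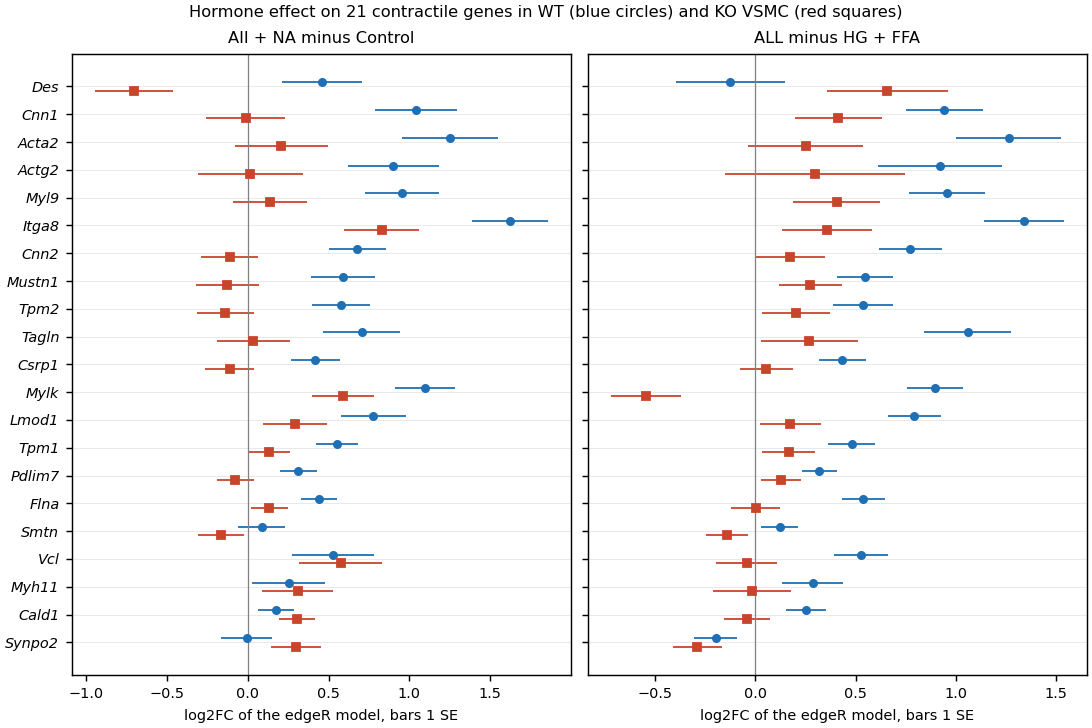
Hormone effect (log2FC of the edgeR models, horizontal axes, bars 1 SE) on the 21 tested contractile genes (vertical axis, ordered by WT minus KO on the left) in WT VSMC (blue circles) and KO VSMC (red squares), as AII + NA minus Control on the left and ALL minus HG + FFA on the right. WT lies to the right of KO for 17 genes on the left and for 20 on the right, where Des is the exception.

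By the lowest unadjusted p among protein-coding and lncRNA genes of at least 3 FPM whose WT and KO set effects did not overlap, 12 genes were taken in each direction. Such a lack of overlap occurred for 296 of 11912 genes (2.48%) with WT above KO and for 308 (2.59%) with WT below KO. Since the genes were taken by this contrast, the values of the first measurement are a description. In the second measurement all 12 genes with a higher effect in WT VSMC kept their sign, and 4 of them (Neurl2, Depp1, Myl12b and Nherf1) had an unadjusted p under 0.05. Of the 12 with a lower effect, 9 kept the sign and Dnm3os and Fmo4 passed.

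Rgs3, an accelerator of GTP hydrolysis that ends signalling by Gαi and Gαq, had the lowest p of them (chromosome 4, 62478084 to 62622238 of GRCm39). Rgs3 read 48.8, 47.9, 49.3 and 43.7 FPM in WT Control and 80.8, 97.5, 66.9 and 94.2 FPM in WT AII + NA. KO VSMC had 38.8, 36.5, 52.8 and 48.8 FPM under Control and 45.6, 42.6, 46.6 and 37.0 FPM with hormones, so WT AII + NA stood apart from the other 3 groups. The log2FC was 0.832 ± 0.126 in WT and -0.0360 ± 0.127 in KO VSMC, and the difference 0.868 ± 0.179 (unadjusted p = 5.68e-05, edgeR FDR = 0.395). The second measurement gave 0.344 (unadjusted p = 0.0525).

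Myl12b, a regulatory light chain of non-muscle myosin, read 23.3, 11.9, 21.4 and 9.86 FPM in WT Control and 33.4, 21.7, 27.4 and 23.0 FPM in WT AII + NA, against 15.6 to 28.8 FPM in KO Control and 15.4 to 29.0 FPM in KO AII + NA. The KO set effects lay between -0.0990 and 0.0282, below all WT set effects. The difference was 0.757 ± 0.190 and was 0.657 (unadjusted p = 0.00845) in the second measurement. Myl12b has a near-identical paralogue, and the split of reads between them is uncertain, as it is for Aldh1a7, an aldehyde dehydrogenase gene with a difference of 0.762 ± 0.179 and a second one of 0.281 (unadjusted p = 0.0924). Depp1, a regulator of autophagy, had the highest difference with 2.07 ± 0.516 and a second difference of 1.40 (unadjusted p = 0.0093), at 0.0293 to 1.22 FPM in WT Control and 1.17 to 6.93 FPM in KO Control. Neurl2, part of a muscle ubiquitin ligase, had 0.784 ± 0.180 and then 0.428 (unadjusted p = 0.0222), and 45.9% of its exonic bases overlap another gene. Nherf1, a scaffold of membrane receptors and transporters, had 0.577 ± 0.147 and then 0.352 (unadjusted p = 0.0207). Tagln2 (transgelin 2), Ehd1 (endocytic recycling), Tspan11 (a tetraspanin), Tyms (thymidylate synthase), Arid5a (an RNA-binding regulator of cytokine mRNA) and Lrrc73 completed the 12, with differences of 0.481 to 0.767 and second differences of 0.040 to 0.221. Those of Ehd1 and Lrrc73 had unadjusted p-values of 0.0553 and 0.0567 without sets 7 and 8.

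The 12 genes on the other side had a negative log2FC in WT and a positive one in KO VSMC, except Fmo4, whose log2FC was -1.16 in WT and -0.0698 in KO VSMC. Dnm3os, a long non-coding RNA that hosts microRNAs, stood at 20.8 to 29.8 FPM in WT Control and 15.8 to 36.3 FPM in KO Control. Its set effects were -0.00727, -0.347, -0.461 and -0.676 in WT and 0.0756, 0.186, 0.286 and 0.745 in KO VSMC. All WT sets were lower and all KO sets higher with hormones, with WT set 1 close to 0. The difference was -0.692 ± 0.195 and was -0.608 (unadjusted p = 0.00683) in the second measurement. With the trend over transcript length and GC content removed the first was -0.312 (unadjusted p = 0.0937).

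Fmo4 read 1.32, 3.49, 0.784 and 6.49 FPM in WT Control and 0.752, 1.37, 0.343 and 2.91 FPM in WT AII + NA, against 0.775 to 1.64 FPM in KO Control and 0.449 to 1.54 FPM in KO AII + NA. The differences were -1.09 ± 0.323 and then -0.922 (unadjusted p = 0.0166). Plod2, the lysyl hydroxylase of collagen telopeptides, had -0.538 ± 0.157 and -0.211 (unadjusted p = 0.122). Ptprk, a receptor tyrosine phosphatase known to act on EGFR, had -0.530 ± 0.158 and -0.0116 (unadjusted p = 0.937). The lncRNA Gm40841, Zfp788, Spata1, Plscr4 (a phospholipid scramblase), Tmem135, Dsn1 (a kinetochore protein), Tsga10 and Zfp185 made up the rest, with differences of -1.05 to -0.393. That of Tmem135 was -0.1 (unadjusted p = 0.436) with the trend over transcript length and GC content removed. Dsn1, Tsga10 and Zfp185 had the opposite sign in the second measurement. Without sets 7 and 8 the unadjusted p of the first difference was 0.0507 for Zfp788, 0.0564 for Plscr4 and 0.0742 for Ptprk.

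**Figure D4:**
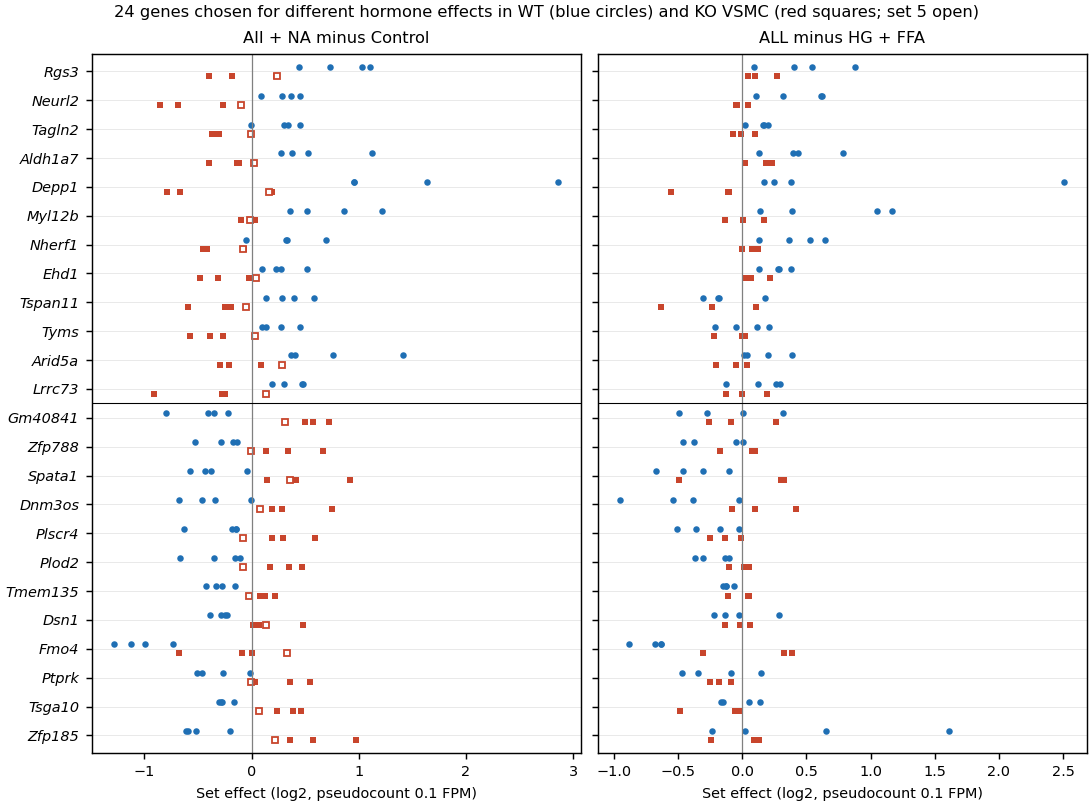
Set effects (log2 ratio of FPM with a pseudocount of 0.1 FPM, horizontal axes) of the 24 genes (vertical axis) in WT VSMC (blue circles) and KO VSMC (red squares, set 5 open), as AII + NA minus Control, on which they were chosen not to overlap, on the left and as ALL minus HG + FFA on the right. On the right the WT sets lie apart from the KO sets for Neurl2, Depp1, Nherf1 and Fmo4 and overlap with them for the other genes.

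Of 6 tested adrenergic receptor genes 0 differed in either direction in the first measurement, against 6.93% of all genes higher and 4.97% lower. In the second measurement 3 had a higher effect in WT VSMC, namely Adra1b, Adra1d and Adra2a, against 3.64% of all genes. Adra1d, an α1-adrenergic receptor, had 20.6 to 44.5 FPM in WT AII + NA, a difference of 0.201 ± 0.260 and a second difference of 0.551 (unadjusted p = 0.00691). Its WT set effects were 0.111, 0.0828, 0.127 and 1.21, so set 4 stood apart. Of 20 EGFR ligand and transactivation genes 0 were higher and 1, the EGFR-restraining gene Lrig3, was lower, a share close to the 4.97% of all genes. Hbegf, the heparin-binding ligand, had a difference of 0.169 ± 0.252 (unadjusted p = 0.507), which was 0.602 (unadjusted p = 0.0403) without sets 7 and 8, and Erbb2, a partner of EGFR, 0.0197 ± 0.0958 (unadjusted p = 0.839). Of 24 genes for G proteins and their regulators, 2 were higher in WT minus KO (Gnai1, which inhibits adenylyl cyclase, and Rgs3) and 4 lower (Gnaq, Gna13, Arrb1 and Rgs4), against the same 6.93% and 4.97%, and with the length and GC trend removed 3 were higher and 1 lower.

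Genes that ERK signalling induces as its own brakes were higher in WT VSMC where they differed. Of 17 such genes 4 had a higher effect in WT VSMC (Dusp1, Spry2, Spry4 and Phlda1) and 0 a lower one, against 6.93% and 4.97% of all genes, and the median difference was 0.204. Phlda1 had a difference of 0.809 (unadjusted p = 0.0534) without sets 7 and 8 and an unadjusted p of 0.0697 without set 6. The unadjusted p of Spry2 was 0.154 without set 2 and 0.195 without set 6, and that of Spry4 was 0.0518 to 0.0806 without set 2, 4 or 6. Dusp1, a phosphatase that inactivates mitogen-activated protein kinases, read 30.0, 36.5, 54.2 and 20.2 FPM in WT Control and 39.9, 56.9, 68.7 and 46.0 FPM in WT AII + NA. KO VSMC had 37.1, 40.6, 80.6 and 31.8 FPM under Control and 37.0, 41.1, 72.5 and 40.0 FPM with hormones, and all WT set effects lay above the KO set effects. The difference was 0.598 ± 0.217 (unadjusted p = 0.0107) and was 0.402 (unadjusted p = 0.0628) in the second measurement, where 1 of the 17 genes was higher and 0 lower, against 3.64% and 2.24% of all genes. Without WT set 4 the first difference of Dusp1 had an unadjusted p of 0.0503. Among 22 immediate early genes 3 were higher (Jund, Ier5 and Npas4) and 0 lower, against 6.93% and 4.97% of all genes. In the second measurement 2 of the 22 were higher and 2 lower, against 3.64% and 2.24% of all genes.

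Of 18 DNA replication genes 4 were higher in WT minus KO (Mcm2, Tyms, Dut and Gins2) and 0 lower, against 6.93% and 4.97% of all genes. In KO VSMC 6 of the 18 genes were lower with hormones at an unadjusted p under 0.05, against 8.37% of all genes. There 0 were higher, against 6.07%. In WT VSMC 0 were lower and 1 higher, against 2.75% and 4.48% of all genes. Dut, which clears dUTP from the nucleotide pool, read 43.2, 54.9, 46.4 and 38.3 FPM in KO Control and 41.6, 40.4, 34.4 and 25.6 FPM in KO AII + NA, with WT set effects from -0.0536 to 0.0677. Its difference was 0.362 ± 0.127 (unadjusted p = 0.00865), but -0.130 (unadjusted p = 0.324) in the second measurement. Without sets 7 and 8 the first differences of Dut and Gins2 were 0.233 (unadjusted p = 0.117) and 0.491 (unadjusted p = 0.082). Mcm2, a subunit of the replicative helicase, was the gene of this list that passed in both, with 0.404 ± 0.177 (unadjusted p = 0.0315) and 0.412 (unadjusted p = 0.0202), and the first had an unadjusted p of 0.0601 to 0.0844 without set 3, 4 or 6. Of 19 genes of G2 and mitosis 0 passed in either direction, and all 19 were positive, against 9039 of 18339 genes. Their median difference was 0.308, against -0.00618 over all genes. In the second measurement 3 of the 19 were higher and 0 lower, against 3.64% and 2.24% of all genes, 17 were positive and the median was 0.340. Of 20 cholesterol synthesis genes 3 were higher (Fdps, Mvd and Mvk) and 0 lower, against the same 6.93% and 4.97%, with Mvd, a decarboxylase of the mevalonate pathway, at 0.761 ± 0.263 (unadjusted p = 0.00788) and at -0.0231 in the second measurement. Without sets 7 and 8 the first differences of Fdps and Mvd were 0.543 (unadjusted p = 0.191) and 0.372 (unadjusted p = 0.207), and without set 8 alone that of Fdps had an unadjusted p of 0.0508.

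Collagen genes pointed the other way in the first measurement. Of 19 collagens 6 had a lower effect in WT than in KO VSMC (Col3a1, Col5a1, Col5a3, Col6a3, Col11a1 and Col14a1), against 4.97% of all genes, 0 a higher one, against 6.93%, and the median difference was -0.228. Col11a1, a chain of a fibrillar collagen, read 75.1, 59.7, 68.9 and 65.8 FPM in WT Control and 67.0, 40.9, 57.5 and 39.8 FPM in WT AII + NA. Its KO set effects were -0.121, 0.125, 0.610 and 0.641. All WT sets were lower with hormones and 3 of the KO sets higher. The difference was -0.705 ± 0.244 (unadjusted p = 0.00791) and -0.0432 (unadjusted p = 0.759) when measured again. In the second measurement 0 of 19 collagens passed in either direction and the median was 0.113. The count of 6 was 1 without KO set 6, where 928 of all 18339 genes were lower. It was 2 without sets 7 and 8, where 210 of all genes were lower. Under that last setting Col6a3 had -0.699 (unadjusted p = 0.0637) and Col11a1 -0.407 (unadjusted p = 0.101). Without set 4, 6 or 8 the unadjusted p was 0.0528 to 0.161 for Col3a1 and 0.0742 to 0.0947 for Col6a3. Collagen transcripts are long (a median of 6183 bases against 3697 over all genes), and the trend of set effects over transcript length is described next. With the trends over length and GC content removed, 7 of the 19 collagens had a lower effect in WT VSMC, against 675 of 18262 genes, and 0 a higher one. The median difference of the collagens was then -0.206.

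Over all genes the WT sets had the higher median likeness. Across 12503 genes of at least 3 FPM, the Pearson correlation of set effects was 0.0873 to 0.425 between WT sets (median 0.322), -0.240 to 0.561 between KO sets (median 0.0651) and -0.269 to 0.379 between a WT and a KO set (median 0.0874). Genes are not independent replicates, and these values are a description. The highest value among KO sets was that of sets 7 and 8. In those sets the hormone effect followed transcript length, with medians of -0.196 and -0.441 in the shortest of 5 length classes and 0.244 and 0.419 in the longest. The WT minus KO difference accordingly went from a median of 0.209 in the shortest to -0.190 in the longest class. In the second measurement the trend of sets 7 and 8 ran the other way, from 0.131 and 0.144 to -0.120 and -0.144. WT sets also had such trends, from 0.132 in the shortest to -0.136 in the longest class in set 4 of the first measurement, and in the second from 0.292 to -0.225 in set 2 and from -0.181 to 0.148 in set 1. The median effect of 3 nuclear lncRNAs, used as markers of RNA quality, was 0.335, 0.376, -0.401 and -0.355 in WT sets 1 to 4 and -0.0753, 0.0635, 0.320 and 0.565 in KO sets 5 to 8. Their part in the results was not tested. With the trends over length and GC content removed, 13 of the contractile genes had a higher effect in WT VSMC and 0 a lower one. Of all 18262 genes, 1298 were then higher and 675 lower. Of the 51 DEG, 41 kept a second difference at an unadjusted p under 0.05, against 3.44% of all genes higher in WT VSMC. Without KO set 5, in contrast, the KO response had 1047 genes at an edgeR FDR under 0.05, of which the 406 that rose had a median transcript length of 7296 bases and the 641 that fell one of 2376 bases, and 7 were among the 51 WT DEG.

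**Figure D5:**
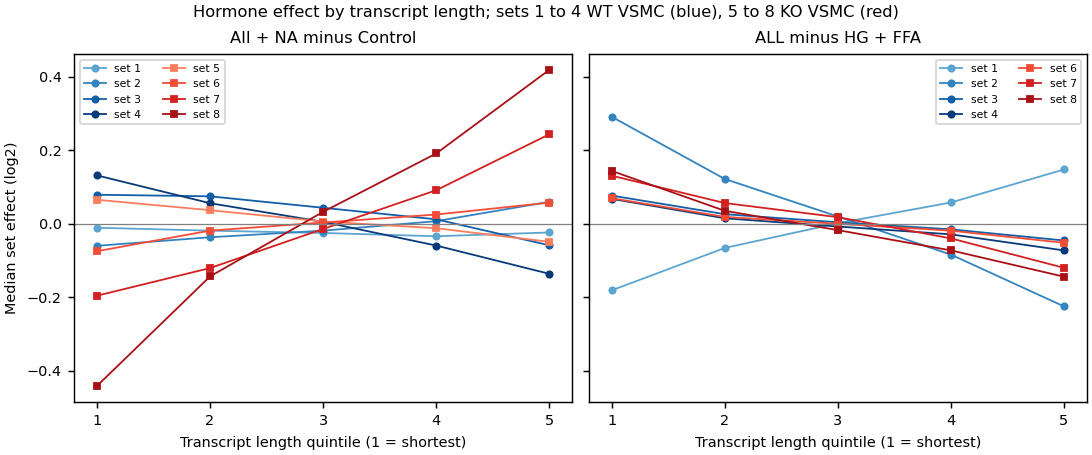
Median hormone effect (log2, vertical axis) of genes in 5 classes of transcript length (horizontal axis, 1 the shortest) for each set, WT VSMC in blue and KO VSMC in red, as AII + NA minus Control on the left and ALL minus HG + FFA on the right. The lines of KO sets 7 and 8 climb from -0.196 and -0.441 to 0.244 and 0.419 on the left and descend on the right.

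Over all genes the measurements shared little. Across all genes tested the correlation of the WT minus KO values of both was 0.00613, and it was 0.168 across protein-coding and lncRNA genes of at least 3 FPM. Of the 2182 genes with an unadjusted p under 0.05 in the first measurement, 138 (6.32%) also passed in the second in the same direction, against 549 (3.4%) of the other 16157 genes that passed there in the direction of their first value. The 80.4% of the WT DEG is not a like share, since these genes were chosen by their WT values and counted in the direction of their WT effect. There were 0 KO DEG to set beside them. The 9 of 21 contractile genes were counted whatever their first value. Of the 11 contractile genes that passed in the first measurement, Acta2, Itga8, Csrp1 and Cnn2 also passed in the second.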

How the data were processed

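Poly(A) RNA of primary VSMC was sequenced by the study. Per the labels, the authors aligned reads to mm39 with HISAT2 2.1.0 and assigned them to exons with featureCounts, counting reads with several alignments, and they deposited raw counts per gene. The strand setting was not given in the sources used here. All 31 VSMC libraries (23238979 to 37801299 counts in the 16 libraries compared, median 30000005) were fitted in 1 quasi-likelihood model in edgeR 4.0.16 (R 4.3.3) with TMM normalization, filterByExpr, a coefficient for each of the 8 sets and treatment effects nested in genotype. DESeq2 1.42.0 and limma 3.58.1 were alternatives. The FDR is the Benjamini-Hochberg value across the whole table of tested genes. FPM are counts per 1000000 counts of the TMM-scaled library, and set effects are log2 ratios with a pseudocount of 0.1 FPM. The second measurement was fitted on its 14 libraries alone. Models were tested on simulated data.

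The set numbers in the sample titles pair the libraries, since a set has 1 animal number, and same-set libraries deviated from their group means together (r = 0.775 to 0.922). Libraries of a group differed by a chi-square per gene of at least 58.3, so none was a duplicate. Symbols, positions and transcript lengths came from the GENCODE annotation of GRCm39, and 0.024% of the counts lay on identifiers it does not hold. The genes named are the 12 per direction with the lowest interaction p among genes of at least 3 FPM without overlap, the DEG, and members of gene lists by their p or, for receptors and the EGFR system, by their level. Bmp3, Agtr1a, Mylk, Vcl and Myh11 were singled out after their values were seen. Members and gene lists were chosen with earlier results of these data known, and the alternatives without sets 7 and 8, without the length and GC trend and with each genotype fitted alone, and the second measurement, were chosen after seeing the data. The 38 libraries of endothelial cells were not used here. The values of 1 DEG are not reported here.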

Additional observations from a re-analysis of the deposited data

Results flagged for a closer look

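In groups of 4 sets, a set was picked out where its distance to the nearest other set took up more of the whole range than Dixon's 95% limit for 4 values. Chance picks out about 1 in 20 groups, and 9 of 130 groups examined were picked out here. In WT VSMC, set 4 stood apart for Edn1 with a set effect of 2.71 (others 0.943 to 1.21), for Adra1d with 1.21 (others 0.0828 to 0.127) and for Plscr4 with -0.629 (others -0.180 to -0.142). Set 3 stood apart for Agtr2 with -1.64 (others -0.894 to -0.846) and for Dut with 0.0677 (others -0.0536 to -0.0424). In KO VSMC, set 6 stood apart for Acta2 with 0.491 (others 0.0933 to 0.113) and for Spry4 with -0.464 (others 0.254 to 0.387). Set 5 stood apart for Egfr, with 38.7 FPM in Control (others 0.514 to 1.69 FPM) and 34.3 FPM in AII + NA (others 1.24 to 1.91 FPM).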

How the results depend on the processing

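The block on the set number decided how many genes passed. With no block, 227 genes were higher and 131 lower in WT minus KO at an unadjusted p under 0.05, 205 differed in WT and 538 in KO VSMC, there was 1 WT DEG, and 1 contractile gene was higher and 0 collagens lower. Without the count filter, 350 genes passed the FDR limit for the interaction, 1423 were lower at an unadjusted p under 0.05, and there were 86 WT and 2 KO DEG. DESeq2 gave 90 WT and 1 KO DEG, the 16 libraries alone 23 and WT VSMC alone 8. Without sets 7 and 8, 231 genes were higher and 210 lower, 294 differed in KO VSMC, and there were 27 WT DEG, 3 contractile genes and 2 collagens. With 1 set left out at a time, the interaction gave 0 FDR calls each time, 576 (without set 8) to 2179 (without 5) genes higher and 271 (without 4) to 1996 (without 5) lower at an unadjusted p under 0.05. WT VSMC then had 595 (without 4) to 1530 (without 8) genes and 0 (without 2) to 67 (without 3) DEG, and KO VSMC 585 (without 8) to 4718 (without 5) genes and 0 to 92 (without 5) DEG. Contractile genes numbered 4 (without 4) to 15 (without 1), where 639 and 1382 of all genes were higher. Their median was 0.373 (without 4) to 0.683 (without 3). Collagens numbered 1 (without 6, where 928 of all genes were lower) to 6. In the second measurement, 28 (without 7) to 45 (without 1) of the 51 DEG and 4 (without 7) to 14 (without 1) contractile genes passed. Of all genes, 2.12% (without 7) and 4.14% (without 1) were higher there. The causes were not tested. Of the 63 genes followed under these settings, none reversed its sign with a call, and the other genes named were not followed one by one. Ramp1, Npas4, Depp1 and Des, under 3 FPM in all WT Control libraries, rest on few reads.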
